A study of Homo sapiens with 12 samples.

Results

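AQP3 and 5 other aquaporin genes, AQP1, AQP5, AQP7, AQP9, and AQP11, were described in TIGK, a line of human gingival keratinocytes transfected with hTERT, the catalytic subunit of telomerase. They were chosen by gene name, as 6 of the 58735 genes in the count table, after AQP3 had been singled out for its lower level with L-Arginine (Arg) at 24 h. That comparison, and the AQP3 levels it rests on, are therefore given as a description with no test. The AQP3 values with Arg at 48 h were also known when it was picked, so they too are a description. All 4 groups carried the same hTERT genotype and were kept in 48 mM glucose. The control groups received no Arg and the Arg groups received 500 µM. The study's methods give a base medium without Arg, so a fall with Arg and a rise without it cannot be told apart. RNA was taken after 24 or 48 h, with 3 libraries (A, B, and C) in each group and 12 in all. TIGK is a single immortalized line. By the study's methods the cells were grown in plate wells and each condition was run with replicates A to C, so p-values measure the spread between these wells or libraries of 1 line, and whether they came from separate passages or days is not given in the sources used here.

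Aquaporins are membrane channels that let water follow osmotic gradients. AQP3, AQP7, and AQP9 belong to the aquaglyceroporins, which also pass glycerol, and AQP3 can carry hydrogen peroxide. In stratified epithelia AQP3 is the main aquaporin of keratinocyte membranes and is known for glycerol supply and hydration. AQP1 and AQP5 are classical water channels, best known in endothelium and in secretory glands, and AQP11 is a divergent member found on intracellular membranes.

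Library totals ran from 16542243 to 19040964 counts, and 29789 genes had at least 1 count. Summed keratinocyte markers were at 42134 to 54399 CPM, that is counts scaled to a common library size, in every library. Melanocyte markers summed to 1.03 to 3.06 CPM with TYR, which encodes the melanin enzyme tyrosinase, at 0 throughout. Control 48 h B stood apart from its group. Its counts differed from those of A and C with a chi-square per degree of freedom of 20.9 and 23.9, against 3.66 between A and C, and the mitochondrial share of its counts was 1.55% against 0.906% and 0.707%. The same pattern was weaker at 24 h. Control 24 h B differed from A and C at 12.3 and 12.5, against 6.54 between A and C. Arg 24 h A differed from B and C at 12.4 and 10.9, against 5.41 between B and C. Results that rest on control 48 h B are given with and without it.

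The promoters of AQP3, which carries most of the aquaporin signal, and of AQP7, its nearest aquaporin neighbor and the one detected in a single group, are shown first, in the RefSeq sequence of GRCh38.p14. Each runs 5′ to 3′ on the gene's own strand, from 250 bases before the start site to 50 after it. Capitals mark matches to the motifs searched on both strands, which were the GC box GGGCGG, the TATA box TATAAA, the CCAAT box, the AP-1 motif TGANTCA, the cAMP response element TGACGTCA and its core TGACG, the E box CACGTG, and the nuclear receptor half-site AGGTCA.
AQP3, chr9:33447544-33447843, minus strand: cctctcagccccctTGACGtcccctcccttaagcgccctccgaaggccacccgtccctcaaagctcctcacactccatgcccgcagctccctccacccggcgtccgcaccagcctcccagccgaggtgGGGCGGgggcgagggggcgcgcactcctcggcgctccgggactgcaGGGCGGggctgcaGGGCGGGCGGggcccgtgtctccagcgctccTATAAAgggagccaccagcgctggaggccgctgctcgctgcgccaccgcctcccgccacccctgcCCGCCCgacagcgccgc
AQP7, chr9:33402519-33402818, minus strand: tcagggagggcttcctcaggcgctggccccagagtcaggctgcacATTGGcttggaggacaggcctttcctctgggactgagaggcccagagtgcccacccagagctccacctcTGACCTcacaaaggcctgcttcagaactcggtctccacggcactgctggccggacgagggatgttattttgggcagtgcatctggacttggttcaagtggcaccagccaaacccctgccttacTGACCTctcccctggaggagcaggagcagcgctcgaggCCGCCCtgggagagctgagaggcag

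The AQP3 window was 75.3% G and C and held 5 GC boxes, of which a pair overlapped by 2 bases, a TATA box that starts at position −32 from the start site, and 1 TGACG that starts at position −236. Of 35116 promoters of the same length, 45% held the GC box, 11.5% the TATA box, and 24.6% the core TGACG. The AP-1 motif (in 7.71% of promoters), the full cAMP response element (1.85%), the E box (7.26%), the nuclear receptor half-site (13.8%), and the CCAAT box (34.6%) had no match in this window. The AQP7 window was 62.7% G and C, with the half-site at 2 places on the opposite strand, 1 CCAAT box, and 1 GC box. Of the 6 aquaporins, 5 matched the promoter table, all but AQP11. A match describes letters only and was not measured as a binding site.

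AQP3 (ENSG00000165272) lies on the minus strand of chromosome 9, from 33441154 to 33447633 of GRCh38, and no other gene of the table overlaps it. Its canonical GENCODE v44 transcript has 6 exons and encodes 292 amino acids. AQP3 was at 257, 226, and 188 CPM in the control 24 h libraries A, B, and C, and at 47.7, 47.8, and 57.4 CPM in the Arg 24 h libraries. It was at 190, 86.7, and 172 CPM in the control 48 h libraries and at 73.7, 65.8, and 67.9 CPM in the Arg 48 h libraries. Every Arg library was below every control library of its own time point, and control 48 h B was the lowest of the 6 controls. The 6 Arg libraries lay between 47.7 and 73.7 CPM. The wider spread of the controls at 48 h rested on control 48 h B, and without it they were at 172 and 190 CPM, against 188 to 257 CPM at 24 h.

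**Figure D1:**
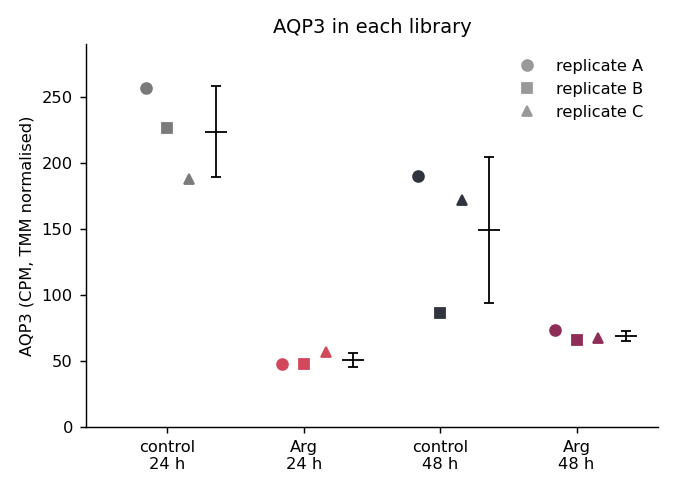
AQP3 level on the vertical axis, in CPM after TMM normalization, for the 12 libraries in 4 groups, with 1 point per library shaped by replicate letter and a bar for the group mean ± SD (n = 3). The control libraries sit at 188 to 257 CPM at 24 h and at 86.7 to 190 CPM at 48 h, and the Arg libraries at 47.7 to 57.4 and 65.8 to 73.7 CPM.

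In group means, AQP3 was ordered control 24 h (224 ± 34.5 CPM, SD, n = 3), control 48 h (149.6 ± 55.3 CPM), Arg 48 h (69.2 ± 4.11 CPM), and Arg 24 h (51.0 ± 5.58 CPM). The control groups overlapped each other, and the Arg groups did not. Per kilobase of gene length, the 4 means in that order were 75.8 ± 11.7, 50.7 ± 18.7, 23.4 ± 1.39, and 17.3 ± 1.89 RPKM. By RPKM, AQP3 ranked 492nd to 723rd of 15148 genes in the control 24 h libraries and 2427th to 2877th in the Arg 24 h libraries. At 48 h it ranked 644th, 1483rd (B), and 734th in the control libraries and 1790th to 2009th in the Arg libraries. AQP3 made up 96.4% to 99.2% of all counts in the 14 named aquaporin genes, so it remained the leading aquaporin in every library. In bulk RNA, fewer cells that express a gene and less of its RNA per cell cannot be told apart.

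The first question was how the aquaporins differed with Arg at 24 h. AQP3 was 4.39-fold lower with Arg, a log2 fold change of −2.14 (standard error 0.11), and leaving out any 1 library kept it between −2.25 and −2.03. Of the 6 aquaporins, 2 (AQP3 and AQP11) had enough counts to enter edgeR's test across genes and 1, AQP3, passed it, in a comparison where 6.63% of 14279 genes passed, 2.79% as higher and 3.84% as lower. AQP3 entered because of this contrast, so nothing is read from its passing. The mitochondrial share moved with the groups as well, at 1.197% to 1.296% of counts in the control and 0.624% to 0.802% in the Arg libraries, and its part in the AQP3 difference was not tested. Fibroblast markers, summed, were at 34.2 to 54.4 CPM in the control and 30.2 to 41.4 CPM in the Arg libraries. Leukocyte markers, of which 0 of 5 were at 0 in all libraries, summed to 2.20 to 3.56 CPM in the control and 1.34 to 2.27 CPM in the Arg libraries. Most of this was CD14, a lipopolysaccharide co-receptor, at means of 2.82 and 1.52 CPM, while PTPRC, the defining leukocyte antigen CD45, was at 0.108 and 0.0546 CPM. ITGAM was at 0.0193 and 0 CPM. CD68 and CD3E went the other way, CD68 from 0.0758 to 0.114 CPM and CD3E from 0.0377 to 0.113 CPM with Arg. The part of either marker list in the AQP3 difference was not tested.

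At 48 h, AQP3 was 2.17-fold lower with Arg, at −1.11 on the log2 scale (standard error 0.21). Without control 48 h B the value was −1.39, the lowest of the 6 values with 1 library left out, and without control 48 h A it was −0.90, the highest. Of the 2 aquaporins tested, 0 passed edgeR's test (1, AQP3, at an unadjusted p under 0.05, and 0 with DESeq2), against 0.117% of 14562 genes. AQP3 was past the threshold in 3 of 7 alternatives that keep all libraries (no filter on low counts, the model of all 12 libraries, and the replicate block) and without control 48 h B, where 15.9% of 14854 genes passed. Since AQP3 was picked with its values at 48 h known, nothing is read from these calls. The mitochondrial share was 1.14% to 1.31% in the Arg libraries, below that of control 48 h B and above those of A and C. Leukocyte markers summed to 1.76 to 3.78 CPM in the control and 0.991 to 1.67 CPM in the Arg libraries, which did not overlap. CD14 was at means of 2.44 and 1.17 CPM, PTPRC at 0.265 and 0.0781 CPM, and ITGAM at 0.175 and 0.0198 CPM. CD68 and CD3E again went the other way, CD68 from 0 to 0.0589 CPM and CD3E from 0.0175 to 0.0522 CPM with Arg. Fibroblast markers were at 85.4 to 103 and 72.7 to 100.3 CPM. The part of these in the AQP3 difference was not tested. The Arg effect on AQP3 at 48 h minus that at 24 h was 1.02 (standard error 0.26) on the log2 scale, which is a smaller difference at 48 h. Without control 48 h B it was 0.75, the lowest value with 1 library left out, and the highest was 1.23. In the edgeR model of the 12 libraries, 0 of 3 aquaporins tested (AQP1, AQP3, and AQP11) passed for this term (0 with DESeq2, and 1, AQP3, at an unadjusted p under 0.05), against 0.0132% of 15148 genes. For AQP3 this term contains the contrast that singled it out, so nothing is read from its calls.

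The time comparisons each share 3 libraries with the contrast that singled out AQP3, so the AQP3 values are again a description. Without Arg, AQP3 was 1.49-fold lower at 48 h than at 24 h, at −0.58 on the log2 scale (standard error 0.22), and the groups overlapped. This value rested on control 48 h B, since it was −0.30 without it and −0.79 without control 48 h A. Among all genes, 19.9% of 14449 passed in this comparison, 9.9% as higher and 10% as lower. With Arg, AQP3 was 1.36-fold higher at 48 h, at 0.44 (standard error 0.089), and the 3 libraries of each time did not overlap. Among all genes, 28.3% of 14398 passed in this comparison, 14.3% as higher and 14% as lower. No call is read for AQP3 in either time comparison, because the Arg 24 h and control 24 h libraries were those that singled it out. Summed fibroblast markers also differed between the time points, at 30.2 to 54.4 CPM at 24 h and 72.7 to 103 CPM at 48 h. Summed endothelial markers were at 0.921 to 3.17 and 4.32 to 6.56 CPM. Most of the fibroblast sum was DCN and COL1A1. In the controls their means went from 31.7 and 12.4 CPM at 24 h to 66.7 and 24.4 CPM at 48 h. COL1A2, COL3A1, and LUM were higher too, at means of 1.84 CPM or below. PDGFRA and PDGFRB were not higher in either arm. Most of the endothelial sum was KDR and VWF, in the controls at 1.51 and 0.492 CPM and later 3.63 and 1.34 CPM. PECAM1 and TEK were at 0.282 CPM or below in the controls, and CDH5 at 0. With Arg, PECAM1 went from 0.147 to 0.113 CPM and CDH5 from 0.0537 to 0 CPM, while TEK went from 0.131 to 0.231 CPM. The part of either marker list in the time comparisons was not tested.

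The other aquaglyceroporins were near the limit of detection. AQP7, which passes glycerol and is best known in fat cells, had 4, 6, and 7 counts in the control 48 h libraries A, B, and C and 0 in each of the other 9 libraries. Summed over the 3 libraries this is 17 counts, or 0.304 CPM of the summed library totals, without TMM scaling (exact 95% Poisson interval 0.177 to 0.487, for counting error only). When 0 counts in a group are set to 3, AQP7 in control 48 h was at 5.30-fold the level of Arg 48 h. It was at 5.55-fold that of control 24 h and 5.54-fold that of Arg 24 h. These ratios leave out the counting error of the 17 counts, so they are not lower bounds. AQP7 did not reach the count needed for the test across genes in any comparison. Its 5 pseudogenes in the table were at 0 in every library. AQP7 lies on chromosome 9 from 33383179 to 33402682, on the strand of AQP3, with the gene starts 45.0 kb apart. Control 48 h B, low for AQP3, had an AQP7 count between those of A and C.

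AQP9, the aquaglyceroporin best known in liver, had 17 counts in 7 libraries. Its counts were 3, 1, and 3 in control 24 h, 0 in each Arg 24 h library, 0, 2, and 0 in control 48 h, and 1, 5, and 2 in Arg 48 h. The gene overlaps ALDH1A2, a retinoic acid synthesis gene on the opposite strand with 111 counts, and 354 of its 3235 exonic bases in GENCODE v44 are shared with it. The strand setting of the counting is not given in the sources used here, so the AQP9 counts are uncertain.

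**Figure D2:**
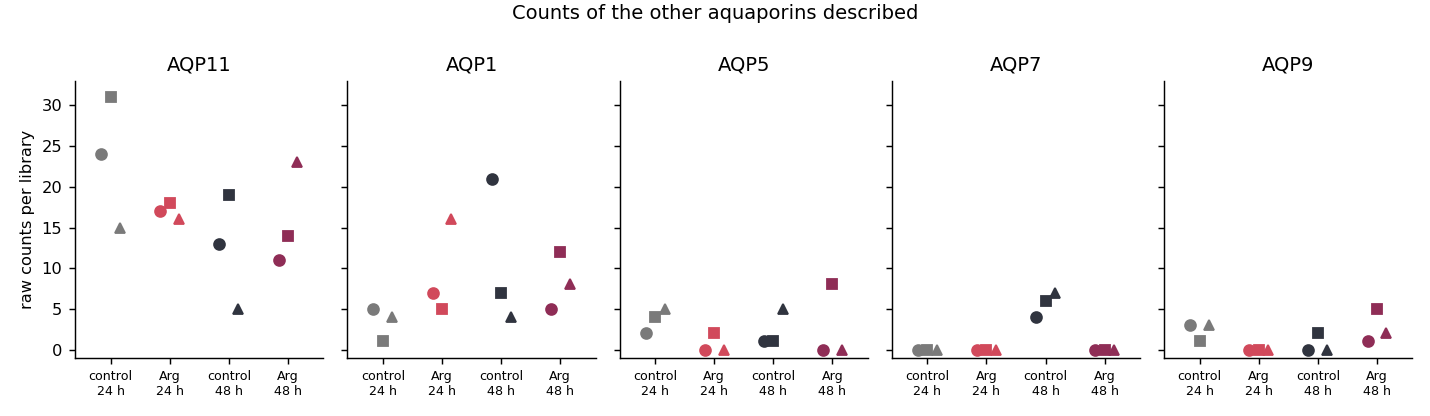
Raw counts on the vertical axis for AQP11, AQP1, AQP5, AQP7, and AQP9 in the 12 libraries, 1 point per library, by group and shaped by replicate letter. AQP7 has 4 to 7 counts in the control 48 h libraries and 0 elsewhere, and the highest count of any library is 31, for AQP11.

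Of the classical water channels, AQP1 had 95 counts. It had 5, 1, and 4 in control 24 h, 7, 5, and 16 in Arg 24 h, 21, 7, and 4 in control 48 h, and 5, 12, and 8 in Arg 48 h. On the same scale of summed totals, AQP1 was at 0.183 CPM (interval 0.0877 to 0.336) in control 24 h, 0.512 (0.340 to 0.740) in Arg 24 h, 0.573 (0.392 to 0.809) in control 48 h, and 0.478 (0.310 to 0.706) in Arg 48 h. The interval of control 24 h lay below those of Arg 24 h and control 48 h and overlapped that of Arg 48 h. Single libraries held most of the counts of both groups above it, since Arg 24 h C held 16 of 28 and control 48 h A 21 of 32. Without Arg 24 h C the level of that group was 0.337 CPM (0.174 to 0.588), and without control 48 h A it was 0.297 CPM (0.148 to 0.531), and both intervals then overlapped that of control 24 h. These sums without 1 library were chosen after seeing the data. AQP1 entered only the 12-library model, where the Arg effect at 48 h minus that at 24 h was −1.68 with a standard error of 1.03. Without control 48 h A, which held 21 of its 95 counts, that value was −0.74.

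AQP5, the water channel of salivary and sweat glands, had 28 counts. They were 2, 4, and 5 in control 24 h, 0, 2, and 0 in Arg 24 h, 1, 1, and 5 in control 48 h, and 0, 8, and 0 in Arg 48 h. All of the Arg 48 h counts came from library B. The summed level was 0.201 CPM in control 24 h (interval 0.100 to 0.360) and 0.0366 in Arg 24 h (0.00443 to 0.132), and these intervals overlapped. AQP5 did not enter the test in any comparison.

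AQP11, the divergent intracellular aquaporin, had 206 counts and was the only one besides AQP3 tested in every comparison. It was at 1.30, 1.75, and 0.869 CPM in control 24 h, 0.955, 1.05, and 0.860 CPM in Arg 24 h, 0.682, 0.986, and 0.268 CPM in control 48 h, and 0.574, 0.834, and 1.32 CPM in Arg 48 h. The groups overlapped in every comparison. Its log2 fold change with Arg was −0.45 (standard error 0.41) at 24 h and 0.48 (0.54) at 48 h. From 24 to 48 h it was −1.004 (0.50) without Arg, with an adjusted p of 0.179 from edgeR's quasi-likelihood test, and −0.073 (0.46) with Arg, with an adjusted p of 0.927. Taking 2 standard errors to either side, the Arg difference spans −1.28 to 0.37 at 24 h and −0.60 to 1.55 at 48 h. The gene lies within the span of CLNS1A, which encodes a chloride channel regulator, on the opposite strand and with 48487 counts, and the annotation gives them 0 shared exonic bases.

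Of the aquaporin genes outside the 6, AQP6 had 18 counts, AQP10 12, MIP 2, and AQP2 2, and AQP4, AQP8, AQP12A, and AQP12B had 0. AQP6, an anion-permeable aquaporin of kidney, therefore had more counts than AQP7 or AQP9. With 3 counts taken as the limit, a count of 0 over a group allows up to 0.0537 to 0.0574 CPM, for counting error only.

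AQP3 was next set beside all other tested genes by the shape of its profile, measured as the root mean square difference of log2 CPM, each gene centered on its own mean over the 12 libraries. AQP3 itself varied around its mean by 0.882. Of 15147 genes, the nearest were DUSP1 (difference 0.296), FOS (0.343), ARNT2 (0.352), GEM (0.363), and CDKN1C (0.370). DUSP1 encodes a phosphatase of MAP kinases and FOS a subunit of the AP-1 transcription factor, both immediate early genes. ARNT2 encodes a bHLH-PAS transcription factor, GEM a small GTP-binding protein, and CDKN1C the cyclin-dependent kinase inhibitor p57. DUSP1 was at 309 ± 51.6 CPM in control 24 h, 112 ± 6.43 in Arg 24 h, 247 ± 71.5 in control 48 h, and 128 ± 8.36 in Arg 48 h (SD, n = 3). FOS was at 162 ± 34.9, 39.0 ± 3.96, 133 ± 2.08, and 69.3 ± 8.95 CPM in the same order. Control 48 h B separated them, since FOS was at 131 CPM there, close to its group mean, while DUSP1 was at 164 and CDKN1C at 49.2 CPM, against group means of 247 and 135. These 5 genes are a description of likeness over 12 libraries that share their groups.

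**Figure D3:**
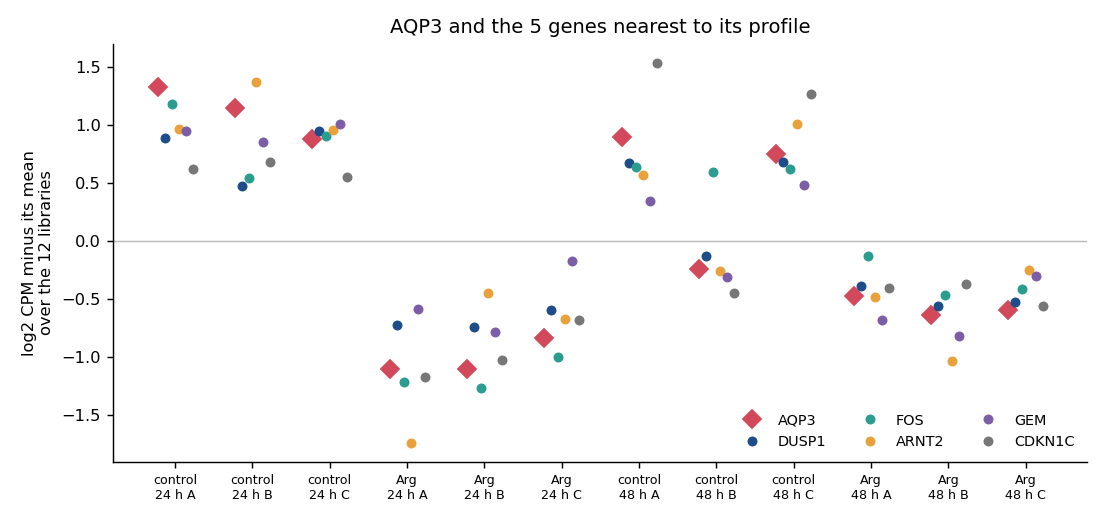
Log2 CPM minus the gene's own mean over the 12 libraries on the vertical axis, for AQP3 and the 5 genes nearest to its profile, 1 point per gene and library. All 6 genes lie above 0 in the control 24 h libraries and below 0 in the Arg libraries, and in control 48 h B only FOS lies above 0.

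The genes around AQP3 were set beside it next. Within 200 kb, 9 other genes were tested, and 0 of 9 passed edgeR's test for Arg at 24 h (0 with DESeq2), with 2 at an unadjusted p under 0.05, against 6.63% of all genes tested. NOL6, a ribosome biogenesis gene whose start lies 26.3 kb from that of AQP3, had a log2 fold change of 0.092 (standard error 0.082), and NFX1, which encodes a zinc finger transcription factor, had 0.12 (0.079). At 48 h 0 of 9 passed edgeR's or DESeq2's test with all libraries, with 1 at an unadjusted p under 0.05, against 0.117% of all genes, and 1 of 9 passed without control 48 h B, against 15.9%. Over time 1 of 9 passed without Arg, against 19.9% of all genes, and 3 of 9 with Arg, against 28.3%. From 24 to 48 h, NOL6 fell by 0.68 on the log2 scale both without Arg (adjusted p = 0.00132, edgeR's quasi-likelihood test) and with Arg (adjusted p = 1.07e-06), while AQP3 with Arg was higher at 48 h. ANKRD18B and ANXA2P2, a pseudogene of annexin A2, also fell with Arg, by 0.36 (adjusted p = 0.0486) and 0.74 (adjusted p = 0.0313) in the same test. The number of neighbors that passed with Arg was 1 to 3 with single libraries left out, against 3 with all libraries. DESeq2 and the replicate block, both with all libraries, each called 1 of 9.

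**Figure D4:**
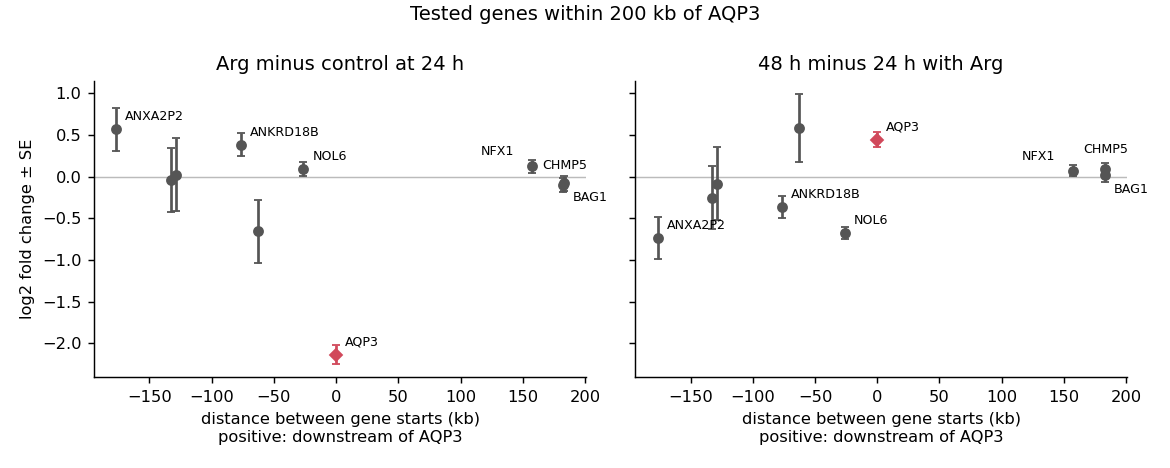
Log2 fold change ± standard error on the vertical axis against the distance between gene starts in kb, for AQP3 and the 9 tested genes within 200 kb, for Arg minus control at 24 h on the left and for 48 h minus 24 h with Arg on the right. At 24 h AQP3 is at −2.14 and NOL6 at 0.092, and over time with Arg AQP3 is at 0.44 and NOL6 at −0.68.

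Genes around the known cargo and setting of AQP3 were counted in 7 lists. The share of all genes that passed for Arg at 24 h was 3.84% as lower and 2.79% as higher. Of the tonicity response genes tested, 2 of 7 fell with Arg at 24 h. SLC5A3, the myo-inositol carrier induced in hypertonic medium, went from 108 ± 5.47 to 74.7 ± 11.4 CPM (−0.53 ± 0.10 on the log2 scale, with its standard error, and an adjusted p of 0.00458 in edgeR's test). HSPA4L, a heat shock protein of the same response, had −0.38 (adjusted p = 0.0111 from edgeR's test). The median over the list was −0.31, against 0.0030 over all genes tested, and all 7 values were below 0. The list held 1 to 5 lower calls when single libraries were left out. SLC5A3 kept its call in all 13 alternatives, and HSPA4L lost it without control 24 h A, Arg 24 h B, or Arg 24 h C.

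Of 14 tested genes for hydrogen peroxide production and removal, 2 fell at 24 h and 0 rose, against 3.84% and 2.79% of all genes. GPX1, a selenium-dependent peroxidase, went from 251 ± 11.1 to 132 ± 9.92 CPM (−0.93 ± 0.081, with an adjusted p of 2.33e-06 in edgeR's test), and GPX4, the lipid hydroperoxide peroxidase, had −0.38 (adjusted p = 0.0174 from edgeR's test). The median of this list was −0.17, against 0.0030 over all genes. GPX1 passed in all 13 alternatives, and GPX4 lost its call without control 24 h A, Arg 24 h B, or Arg 24 h C. Of 18 cell volume channels and ion carriers, 2 fell, 0 rose, and 17 had values below 0, with a median of −0.14, beside the same share and median of all genes. These 2 were LRRC8C, a subunit of the volume-regulated anion channel (−0.67, adjusted p = 0.0210 from edgeR's test), and ATP1B3, a sodium pump subunit (−0.37, adjusted p = 0.0107 from edgeR's test). LRRC8C lost its call without control 24 h A or C or without Arg 24 h B or C, and ATP1B3 lost it without Arg 24 h B.

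Of 23 tested glycerol and glycerolipid genes, 1 fell at 24 h, a share near the 3.84% of all genes. It was DGAT1, which makes triglyceride (−0.41, adjusted p = 0.0277 from edgeR's test). DGAT1 lost its call in 5 of 13 alternatives, those without control 24 h A or C, without Arg 24 h A or C, and in the model of all 12 libraries. The median of this list was −0.026. Of 9 tested nuclear receptors, 0 passed in edgeR or DESeq2 and 0 had an unadjusted p under 0.05, and PPARG, a lipid-sensing receptor, was at −0.33 (adjusted p = 0.256 from edgeR's test). Of 10 basal keratinocyte genes, 1 fell, against 3.84% of all genes, with a median of 0.045. This was ITGA6, an integrin of the basement membrane contact (−0.40, adjusted p = 0.00840 from edgeR's test), a call lost without control 24 h C or Arg 24 h C. Of 11 suprabasal genes, 0 passed in edgeR and 1, higher, in DESeq2, which called 494 of 14279 genes higher. In edgeR, 3 were at an unadjusted p under 0.05, with a median of 0.29, and DSG1, a desmosomal cadherin of upper layers, was at 0.65 (adjusted p = 0.0530 from edgeR's test).

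At 48 h, 0 genes of the 7 lists passed for Arg, in a comparison with 17 calls among all genes in edgeR (0.117%). An unadjusted p under 0.05 was seen for 5 hydrogen peroxide, 4 tonicity, 3 volume, 3 glycerol, 3 basal, 1 nuclear receptor, and 1 suprabasal gene. DESeq2 called 1 tonicity gene and 2 hydrogen peroxide genes, all lower, in a fit that called 144 of 14562 genes lower and 40 higher. Without control 48 h B, 15.9% of 14854 genes passed, 1213 as lower and 1152 as higher. In that fit there were 3 lower and 1 higher of 7 tonicity genes, 5 lower of 15 hydrogen peroxide genes, 4 lower and 3 higher of 18 volume genes, 3 lower and 2 higher of 23 glycerol genes, 2 lower and 1 higher of 10 basal genes, 5 higher of 12 suprabasal genes, and 0 of 9 nuclear receptors. For the Arg effect at 48 h minus that at 24 h, 0 genes of the lists passed in the 12-library edgeR model or in DESeq2, with at most 2 of any list at an unadjusted p under 0.05.

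Over time in culture, suprabasal genes, which mark cells leaving the basal layer, rose in both arms. Without Arg 6 of 11 rose and 0 fell, against 9.9% and 10% of all genes, with a median of 0.76 against 0.012. With Arg 9 of 12 rose and 0 fell, against 14.3% and 14%, with a median of 1.21 against 0.00092. KRT10, an early suprabasal keratin, rose by 1.53 without Arg (adjusted p = 0.00721) and by 1.82 with Arg (adjusted p = 3.27e-07, edgeR's test). KRT4, a keratin of mucosal epithelium, rose by 1.76 (adjusted p = 0.00217) and 1.87 (adjusted p = 1.54e-06, edgeR's test). AQP3, in the same comparisons, was at −0.58 and 0.44. Leaving out control 24 h A reduced the calls without Arg to 2, and with Arg 7 to 9 passed with any library left out. The fibroblast and endothelial sums given above were also higher at 48 h.

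The other lists stand beside the same shares of all genes, 9.9% higher and 10% lower without Arg and 14.3% and 14% with Arg. Of 23 glycerol and glycerolipid genes, 4 rose and 4 fell over time without Arg (median −0.071), and 4 rose and 7 fell with Arg (median −0.18). PLD1, a phospholipase, rose by 1.49 with Arg (adjusted p = 7.38e-07), and MGLL, which releases glycerol from monoglyceride, fell by 0.76 (adjusted p = 0.00460, edgeR's test). Both also passed edgeR's test without Arg, where PLD1 lost its call in 4 of 13 alternatives and MGLL in 2. Without Arg the same list held 1 to 4 higher and 1 to 4 lower calls with single libraries left out. Of 9 nuclear receptors, RXRA, the shared partner of PPAR and retinoic acid receptors, rose by 0.64 without Arg (adjusted p = 0.00406) and by 0.56 with Arg (adjusted p = 9.57e-05, edgeR's test) and kept both calls in all 13 alternatives. Of 14 hydrogen peroxide genes, 2 rose and 1 fell without Arg, and 4 rose and 2 fell with Arg, GPX1 falling by 0.96 (adjusted p = 6.47e-08, edgeR's test). LRRC8C fell by 0.95 without Arg (adjusted p = 0.00634) and by 0.77 with Arg (adjusted p = 0.00167, edgeR's test), among 18 volume genes of which 3 rose and 1 fell without Arg and 5 rose and 1 fell with Arg. Of 7 tonicity genes, 2 fell without Arg, and 1 rose and 2 fell with Arg, and of 10 basal genes, 1 rose and 2 fell without Arg, and 2 rose and 3 fell with Arg.

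**Figure D5:**
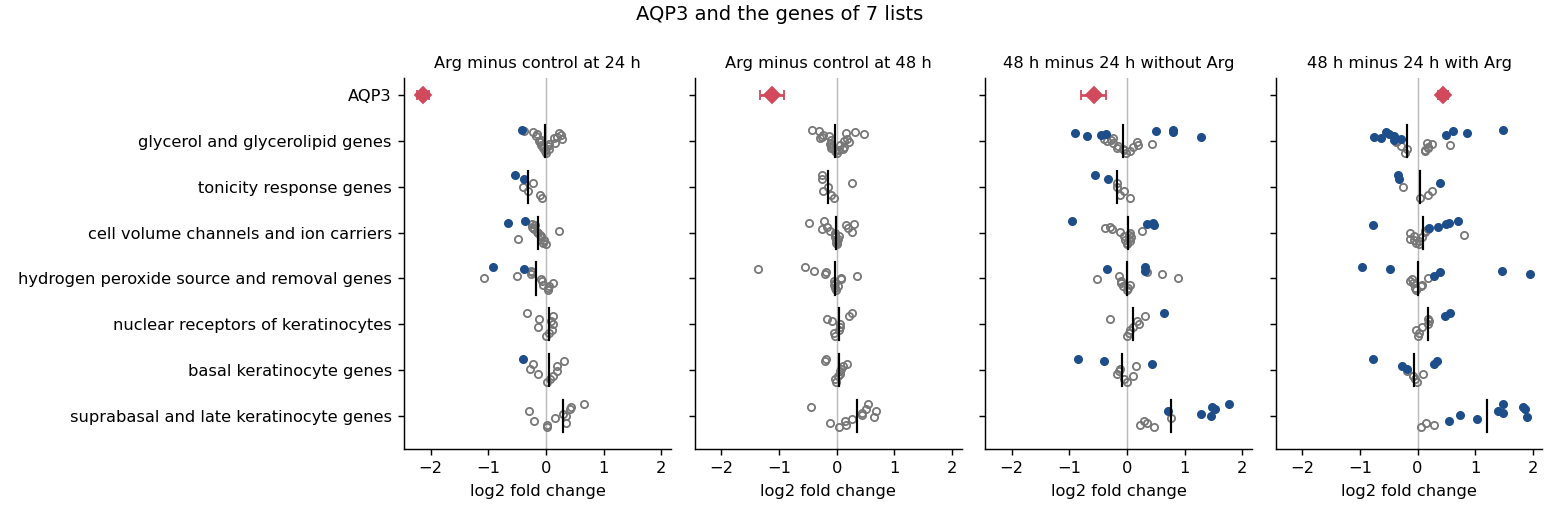
Log2 fold change on the horizontal axis for AQP3 (diamond, ± standard error) and for each tested gene of 7 lists (circles), in 4 comparisons, with filled circles for genes past the adjusted p threshold of 0.05 and a vertical bar for the list's median. For Arg at 24 h AQP3 is at −2.14 while the list medians run from −0.31 to 0.29, and over time the suprabasal medians are 0.76 without Arg and 1.21 with Arg.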

How the data were processed

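The authors deposited 1 table of raw counts per gene for 12 libraries. Per the labels, reads were processed with fastp, STAR, and featureCounts on GRCh38; versions, annotation release, and strand setting are not given in the sources used here. The deposited counts were tested in R 4.3.3 with edgeR 4.0.16 (TMM scaling, filterByExpr with a minimum count of 10, quasi-likelihood test, Benjamini-Hochberg adjusted p under 0.05 over all tested genes), in fits of the 2 groups compared, and for the difference between times in 1 model of 12 libraries. CPM and RPKM were computed with TMM over the 12 libraries and the table's gene lengths. Standard errors are the log2 fold change divided by the square root of the F statistic. Counting intervals are exact 95% Poisson intervals and the floor is 3 counts over a group. Scripts were tested on simulated data. Alternatives were DESeq2 1.42.0, other scalings and filters, a replicate block, and leaving out each library. All columns were used. Replicate letters were not treated as pairs in the main fits.

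The 6 aquaporins and the lists were chosen with earlier results of these data known. From each list, at most 3 genes that passed, with the largest log2 fold change, could be named, or the 2 with the smallest p where 0 passed. The 5 nearest profiles and tested genes within 200 kb of AQP3 were also named. The table holds SOD2 as 2 genes, and the one with more counts was used.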

Additional observations from a re-analysis of the deposited data

How the results depend on the processing

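AQP3 stayed lower with Arg at both times under every alternative. With 1 library left out it ranged from −2.25 to −2.03 at 24 h, −1.39 to −0.90 at 48 h, −0.79 to −0.30 for time without Arg, 0.39 to 0.54 for time with Arg, and 0.75 to 1.23 for the Arg effect at 48 h minus that at 24 h. No call of AQP3 is read as support, since it was chosen on these libraries. For Arg at 48 h, AQP3 was past the threshold with no filter on low counts (−1.12) and in the model of all 12 libraries (−1.11), and for the difference between the Arg effects with no filter (1.02). For time without Arg it was past it with no filter on low counts (−0.59) and in the model of all 12 libraries (−0.58). For time with Arg it was past it in the fit of 2 groups and not in that model (0.44). Without control 48 h B, AQP3 was also past the threshold for Arg at 48 h (−1.39) and for the difference between the Arg effects (0.75). Without control 48 h A it was past it for time without Arg (−0.79). The numbers of genes called, with 1 library left out, were 359 to 1529 for Arg at 24 h (947 with all), 6 to 2365 at 48 h (17 with all), 828 to 3304 for time without Arg (2882 with all), 2938 to 3669 for time with Arg (4072 with all), and 0 to 46 for the difference between the Arg effects (2 with all). The highest counts came without control 24 h B at 24 h and for time without Arg, and without control 48 h B at 48 h and for the difference. At 48 h DESeq2 called 184 genes, no filter 573, and the model of all 12 libraries 41. For the difference, DESeq2 called 23 and no filter 88. With library sizes alone as scaling, time without Arg gave 1845 genes higher and 1008 lower, against 1431 and 1451, and time with Arg 2568 and 1453, against 2060 and 2012. The cause of these shifts was not tested. Uncalled values changed sign in 3 cases with 1 library left out: RXRA for Arg at 24 h (−0.0040 to 0.24), AQP11 for time with Arg (−0.44 to 0.18), and KRT10 for the difference (−0.061 to 0.91).

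In a fit with a replicate block by letter, Arg at 48 h gave 184 calls, and AQP3 was past the threshold for Arg at 48 h (−1.05) and for time without Arg (−0.64) and was not in the fits of the same 2 groups without the block. Deviations of libraries with the same letter correlated at −0.0615 to 0.135, so the letters were not taken to pair the libraries. Depth limits AQP1, AQP5, AQP7, and AQP9, which had 95 counts or fewer over 12 libraries.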
